A study of Homo sapiens with 4 samples.

Results

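The loci described here are the genes EEF1A1, TMSB4X and TMSB10 and the pseudogenes EEF1A1P5 and TMSB4XP8, which are 5 of 59080 genes annotated by RefSeq (GRCh38.p14) on chromosomes 1 to 22 and X. They were chosen by name, selected on the pileup heights of their peaks in these same lists, so the heights are given as a description and carry no test. Every called peak whose summit lay between the ends of one of them was taken. Of 260678 peaks in 4 lists, 21 met this rule, with 6 in SHP1705, 5 in MG132, 5 with both drugs and 5 in DMSO. All 5 loci held a summit in SHP1705 and 4 of 5 in each other list. For comparison, a summit lay in 75.9% of all protein-coding genes and 22.6% of all pseudogenes in SHP1705, 51.6% and 9.63% in MG132, 45.7% and 8.37% with both drugs, and 42.1% and 8.32% in DMSO, and nothing is read from this since the loci were chosen for their peaks. The series used STARR-seq, an assay in which genomic fragments on a plasmid drive their own transcription, so that reporter RNA can be sequenced and called as peaks. The cells were MDA-MB-231, a breast cancer line of mesenchymal type, and the plasmid library, also made from MDA-MB-231 DNA, went into all groups as a common transfection mix. Cells had SHP1705 (a compound that acts on the clock repressor CRY2) at 10 µM, MG132 (a proteasome inhibitor) at 100 nM, the combination at those doses, or DMSO as the control (the combination is also called both drugs below), with RNA taken at 8 h. There was 1 library per treatment, so no spread between replicates exists and no p-value is given.

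EEF1A1 encodes the elongation factor that carries aminoacyl-tRNA to the ribosome, and it is among the most abundant mRNAs of dividing cells. TMSB4X and TMSB10 encode beta-thymosins, small proteins that bind actin monomers and hold them back from filaments. Processed pseudogenes such as EEF1A1P5 and TMSB4XP8 arose when mRNAs were reverse transcribed and inserted elsewhere in the genome, which leaves a copy without introns. A peak at any of these loci counts sequenced fragments that align there and does not measure the expression of the gene. Fragments that match a parent gene and its copy equally well can be placed at either, and how they were treated is not given in the sources used here, so the division of fragments between parent and copy is uncertain. More transfected cells and more reporter RNA per cell cannot be told apart.

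The SHP1705 library stood apart from the others. Its tallest peak over all chromosomes, with 645262 fragments, lay on the mitochondrial genome, while that of each other list lay on chromosome 1. Outside the mitochondrial genome its tallest peaks included copies of abundant mRNAs. It held 118324303 fragments, against 27289266 in MG132, 28331486 with both drugs and 29717604 in DMSO. Mesenchymal marker genes (VIM, FN1, CD44, AXL and SPARC) held a summit in 5 of 5 cases in SHP1705, 4 in MG132, 5 with both drugs and 4 in DMSO. Heights were scaled as fragments covering a summit per 1000000 fragments of the library, written FPM. The summed height of these genes was 1421 FPM in SHP1705, against 41.9 in MG132, 51.4 with both drugs and 37.9 in DMSO. Luminal and epithelial markers (ESR1, PGR, GATA3, FOXA1, CDH1 and EPCAM) held a summit in 6 of 6, 5, 4 and 4 cases in the same order, with summed heights of 81.1, 26.3, 54.2 and 26.5 FPM. CDH1 (41.7 FPM) and EPCAM (33.4 FPM) made up most of the SHP1705 sum, and the medians over the luminal markers with a summit were 2.35, 4.95, 13.9 and 2.71 FPM. ESR1 and PGR were lower in SHP1705 than in DMSO, with ratios of 0.157 and 0.128. CDH1 and EPCAM were higher, with ratios of 20.3 and 16.3. Of all protein-coding genes and pseudogenes with a summit in both lists, 49% were at least 2-fold lower and 29.3% at least 2-fold higher. MDA-MB-231 is known to lack the segment with CDKN2A, CDKN2B and MTAP. All 3 genes held a summit in SHP1705 and 1 of the 3 in each other list. These counts, and those of both marker sets, are to be read against the shares of all protein-coding genes with a summit. The shares were 75.9% in SHP1705, 51.6% in MG132, 45.7% with both drugs and 42.1% in DMSO. The summed height of CDKN2A, CDKN2B and MTAP was 38.4 FPM in SHP1705, 0.66 in MG132, 2.47 with both drugs and 0.942 in DMSO. The part of these differences between libraries in the results below was not tested.

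EEF1A1P5 carried the tallest peak of the 5 loci in every list. This copy of EEF1A1 lies on chromosome 9 at 133019423 to 133021169 (hg38). The height of a peak is its pileup, the number of fragments that cover the summit. EEF1A1P5 reached 402266 fragments in SHP1705, 2995 in MG132, 2704 with both drugs and 3154 in DMSO. Scaled to depth, this was 3400 FPM in SHP1705, against 110 in MG132, 95.4 with both drugs and 106 in DMSO. SHP1705 was therefore far above the other lists, which lay between 95.4 and 110 FPM. Among the peaks of its own list on chromosomes 1 to 22 and X, EEF1A1P5 ranked 1 of 85840 in SHP1705, 188 of 69842 in MG132, 205 of 57174 with both drugs and 209 of 47822 in DMSO.

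The outline of the EEF1A1P5 peak was nearly the same in all 4 lists. It ran from 133019443 to 133021062 in SHP1705, from 133019443 to 133021056 in MG132, from 133019444 to 133021036 with both drugs and from 133019444 to 133021039 in DMSO. Its width was 1593 to 1620 bp, which covered 91.2% to 92.7% of the annotated copy. The summit lay at the same base, 133019680, in the SHP1705, MG132 and combination lists, and 1 bp away in DMSO. The small nucleolar RNA gene SNORD141A lies inside the copy, but none of the 4 summits fell within it.

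TMSB4XP8, a copy of TMSB4X on chromosome 4 at 90838496 to 90839112, lies inside the much longer protein-coding gene CCSER1. Its peak held 304030 fragments in SHP1705, 1935 in MG132, 1614 with both drugs and 1803 in DMSO, or 2569, 70.9, 57.0 and 60.7 FPM. SHP1705 again stood alone, and the other lists lay close together. The peak ranked 2 in SHP1705, 302 in MG132, 415 with both drugs and 455 in DMSO. All 4 peaks ended within 1 bp of each other, at 90839102 or 90839103, while the low-coordinate edge was 37 to 41 bp further out in SHP1705 than in the other lists. The summit moved by at most 6 bp, and 70.0% to 76.8% of the copy was covered.

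**Figure D1:**
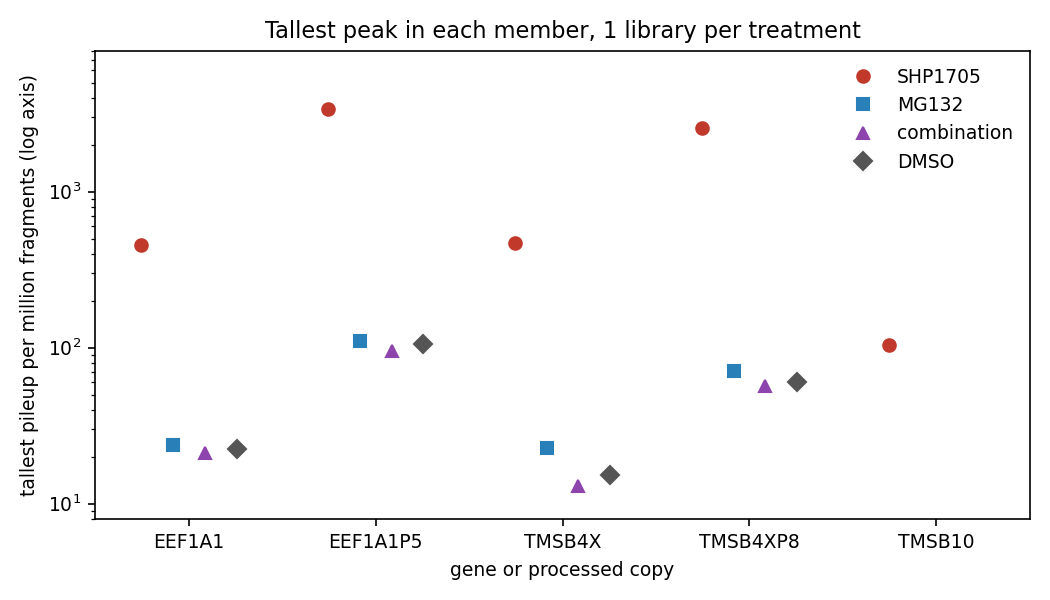
The tallest pileup in FPM (log axis) is plotted for each locus and each of the 4 libraries, with no error bars because there was 1 library per treatment. SHP1705 is the highest point at all 5 loci, from 105 at TMSB10 to 3400 at EEF1A1P5, and TMSB10 has no point in the other lists.

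EEF1A1, the parent gene on chromosome 6 at 73515750 to 73521032, held a pair of separate peaks in each list. It is transcribed towards lower coordinates, so the peak at higher coordinates is nearer its start. The peak further from the start held 53808 fragments in SHP1705, 652 in MG132, 602 with both drugs and 668 in DMSO, with its summit 3280 to 3335 bp from the start of the gene. That was 455 FPM in SHP1705, against 23.9 in MG132, 21.2 with both drugs and 22.5 in DMSO. The peak nearer the start held 40211, 264, 235 and 331 fragments in the same order, with its summit at 1942 to 1950 bp. In relation to the taller peak it was 0.747 as high in SHP1705 (95% counting interval 0.738 to 0.757), against 0.405 in MG132 (0.350 to 0.468), 0.390 in the combination (0.334 to 0.455) and 0.496 in DMSO (0.433 to 0.566). The pair was most equal in the SHP1705 library. These intervals, like all others here, are exact binomial ones, cover counting error only with duplicate fragments kept, and test no difference between treatments.

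TMSB4X, on chromosome X at 12975110 to 12977223, had its peak close to the end of the gene. It held 55571 fragments in SHP1705, 620 in MG132, 368 with both drugs and 457 in DMSO. In FPM these were 470, 22.7, 13.0 and 15.4. The order of MG132, DMSO and the combination was the same as at TMSB4XP8, where the gaps were smaller as ratios. The summit lay 1848 to 1860 bp from the start of the gene, and the peak was 456 bp wide in SHP1705, 419 bp in MG132, 404 bp with both drugs and 427 bp in DMSO.

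At EEF1A1 with EEF1A1P5 and at TMSB4X with TMSB4XP8, parent and copy gave peaks of like total width. The widths of the pair of EEF1A1 peaks, without the gap between them, summed to 1611 bp in SHP1705. The EEF1A1P5 peak there was 1620 bp wide. The same widths were 1566 and 1614 bp in MG132, 1557 and 1593 bp with both drugs, and 1575 and 1596 bp in DMSO. TMSB4XP8 peaks were 474, 436, 432 and 434 bp wide in SHP1705, MG132, the combination and DMSO, each wider than the TMSB4X peak of its list. Other copies were less like their parent. EEF1A1P6, a further copy of EEF1A1, had peaks of 1543, 1329, 1325 and 1355 bp in the same order. In SHP1705 the TMSB10 peak was 796 bp wide and that of its copy TMSB10P1 415 bp. Over all 4584 merged regions that held a peak in every list, the tallest summit moved across lists by a median of 142 bp. The summits of the 5 peaks of EEF1A1, EEF1A1P5, TMSB4X and TMSB4XP8 moved by at most 55 bp, a range that 25.1% of those regions also kept to.

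**Figure D2:**
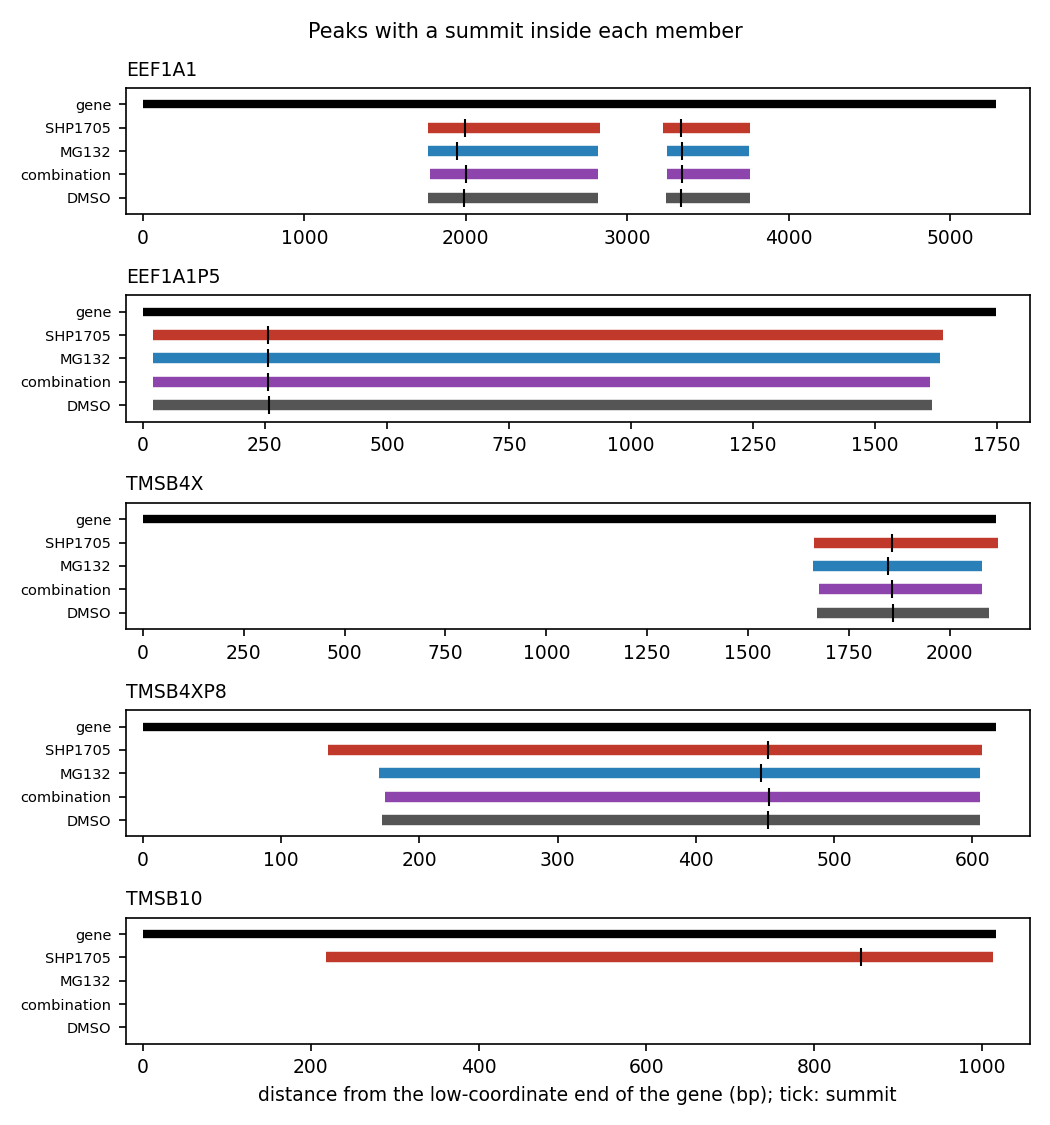
Horizontal bars mark each called peak along its locus (x axis, distance in bp from the low-coordinate end) in SHP1705, MG132, the combination and DMSO, with a tick at the summit and the annotated gene in black on top. Peaks of the same locus line up across the lists, EEF1A1 has a pair of peaks and TMSB10 has 1, in SHP1705.

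TMSB10, on chromosome 2 at 84905656 to 84906671, held a peak in SHP1705 alone. The peak ran from 84905874 to 84906669 with 12398 fragments, or 105 FPM, and ranked 440 in the list. No peak of MG132, the combination or DMSO had its summit inside the gene. The SHP1705 peak was 796 bp wide, while the smallest width that could be called was 299 bp in SHP1705, 354 bp in MG132, 355 bp with both drugs and 346 bp in DMSO. Elsewhere peaks as low as 12 fragments in MG132, 12 with both drugs and 13 in DMSO were called, but the height needed at TMSB10 itself is not in the lists. The summit also lies inside the long noncoding RNA gene LOC105374836, which overlaps TMSB10.

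A copy of TMSB10 had peaks where the parent had none. TMSB10P1, on chromosome 2 at 235882117 to 235882527 inside AGAP1, held 70962 fragments in SHP1705, 649 in MG132, 477 with both drugs and 554 in DMSO. These were 600 FPM in SHP1705, against 23.8, 16.8 and 18.6 in the others. In SHP1705, the list in which both were called, TMSB10P1 was 5.72 times as high as TMSB10 (5.62 to 5.83). TMSB10P1 was chosen after its values were seen to stand beside TMSB10.

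Within each list the copies were taller than their parents. EEF1A1P5 was 7.48 times as high as EEF1A1 in SHP1705 (7.41 to 7.54), 4.59 times in MG132 (4.22 to 5.01), 4.49 times in the combination (4.11 to 4.91) and 4.72 times in DMSO (4.34 to 5.14). SHP1705 had the highest value, and the other lists lay close together. When the pair of EEF1A1 peaks was summed, the ratio was 4.28 in SHP1705, 3.27 in MG132, 3.23 with both drugs and 3.16 in DMSO.

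TMSB4XP8 was 5.47 times as high as TMSB4X in SHP1705 (5.42 to 5.52), 3.12 times in MG132 (2.85 to 3.42), 4.39 times in the combination (3.91 to 4.93) and 3.95 times in DMSO (3.56 to 4.38). Here the MG132 library had the lowest value and SHP1705 the highest. These ratios set peaks of the same library against each other, so library depth does not enter them. For each pair, 3 of the 4 values come from libraries other than the SHP1705 one. The combination among them also had SHP1705 at 10 µM.

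Copies taller than their parent were common in the annotation. RefSeq names 2210 protein-coding parents with at least 1 pseudogene called after them. Among those with a summit in both parent and copy, the tallest copy exceeded the parent in 55.3% of 1329 parents in SHP1705, 48.9% of 421 in MG132, 44.4% of 354 with both drugs and 46.1% of 317 in DMSO. The median ratio was 1.12 in SHP1705, 0.964 in MG132, 0.872 with both drugs and 0.922 in DMSO. Ordered by this ratio, EEF1A1 stood at place 146 in SHP1705, 35 in MG132, 28 with both drugs and 36 in DMSO, and TMSB4X at 176, 53, 31 and 41. The tallest copy was taken from all copies of a parent, 49 for EEF1A1 and 8 for TMSB4X. The peak of the parent could lie anywhere between its ends. The part of copy number and gene length in these shares, ratios and places was not tested. The families with the tallest copies in SHP1705 were EEF1A1, TMSB4X, FTH1, RPL13A and FTL. In the ferritin families the ratio was 2.19 for FTH1P7 over FTH1 and 1.85 for FTLP3 over FTL, while RPL13AP5, a copy of a ribosomal protein gene, was 18.5 times as high as RPL13A. The RPL13AP5 ratio was 7.86 in MG132, 12.4 with both drugs and 12.0 in DMSO, and the ferritin ratios could not be computed in those lists, where copy and parent did not both hold a summit.

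**Figure D3:**
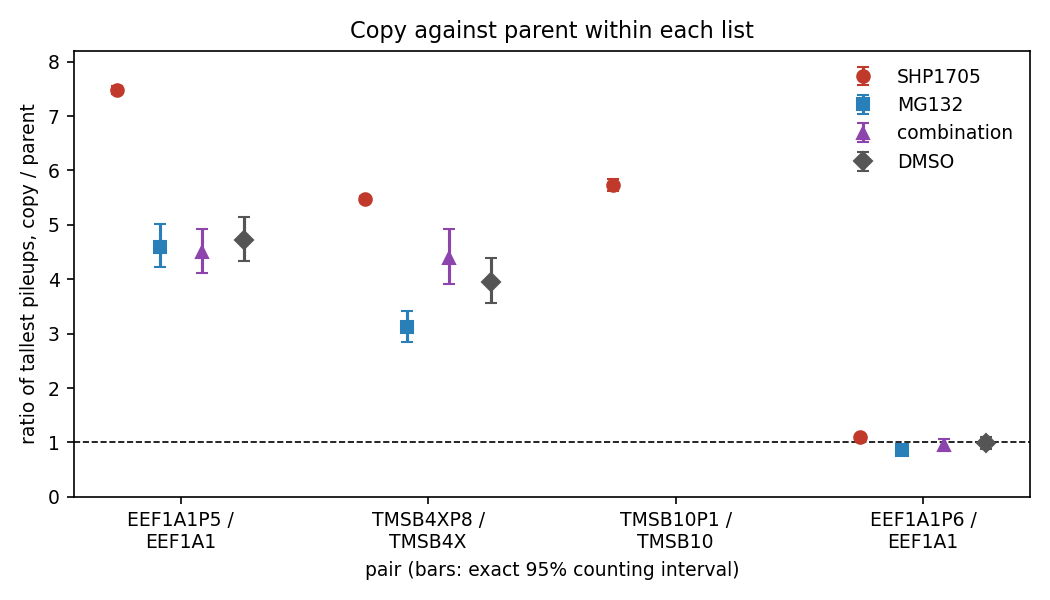
The ratio of the tallest pileup in a copy to that in its parent is plotted for each list, with bars for the exact 95% counting interval and a dashed line at 1. EEF1A1P5 and TMSB4XP8 lie above 3 in all 4 lists, TMSB10P1 over TMSB10 could be computed in SHP1705, and EEF1A1P6 lies near 1.

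Set against DMSO in FPM, the members were much higher in SHP1705 and within 2-fold of DMSO in MG132 and the combination. The ratio of SHP1705 to DMSO was 20.2 at EEF1A1 (18.7 to 21.9), 32.0 at EEF1A1P5 (30.9 to 33.2), 30.5 at TMSB4X (27.9 to 33.6) and 42.4 at TMSB4XP8 (40.4 to 44.4). The values were larger at each copy than at its parent. They depend on the scaling: with each library set so that the median region shared by all lists had a ratio of 1, they were 132 at EEF1A1, 210 at EEF1A1P5, 200 at TMSB4X and 277 at TMSB4XP8. All 4 members with a peak in both lists passed 2-fold. Among all protein-coding genes and pseudogenes with a summit in both lists, 29.3% were at least 2-fold higher in SHP1705 and 49% at least 2-fold lower, with a median ratio of 0.527. The members were chosen for these heights, so nothing is read from the comparison of their count with that share.

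The ratio to DMSO fell into separate humps over the genome in SHP1705, and the members lay in the upper one. Of the 4584 regions with a peak in every list, 31.3% were at least 2-fold higher in SHP1705 than in DMSO, 66.5% at least 2-fold lower and 2.18% in between. Among the 1434 higher regions the median ratio was 30.4, with quartiles at 24.1 and 38.2. EEF1A1 lay below that range, EEF1A1P5 and TMSB4X within it, and TMSB4XP8 above it. Among the 3050 lower regions the median ratio was 0.100.

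In MG132 the ratio to DMSO was 1.06 at EEF1A1 (0.953 to 1.19), 1.03 at EEF1A1P5 (0.983 to 1.09), 1.48 at TMSB4X (1.31 to 1.67) and 1.17 at TMSB4XP8 (1.10 to 1.25). In the combination it was 0.945 (0.845 to 1.06), 0.899 (0.854 to 0.947), 0.845 (0.734 to 0.971) and 0.939 (0.877 to 1.005) at the same loci. None of the 4 passed 2-fold in either direction in these lists. Over all genes with a summit in both lists, 12.6% were at least 2-fold higher and 25.7% at least 2-fold lower in MG132, with 15.4% and 19.1% in the combination. The 3 comparisons share the same DMSO library.

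**Figure D4:**
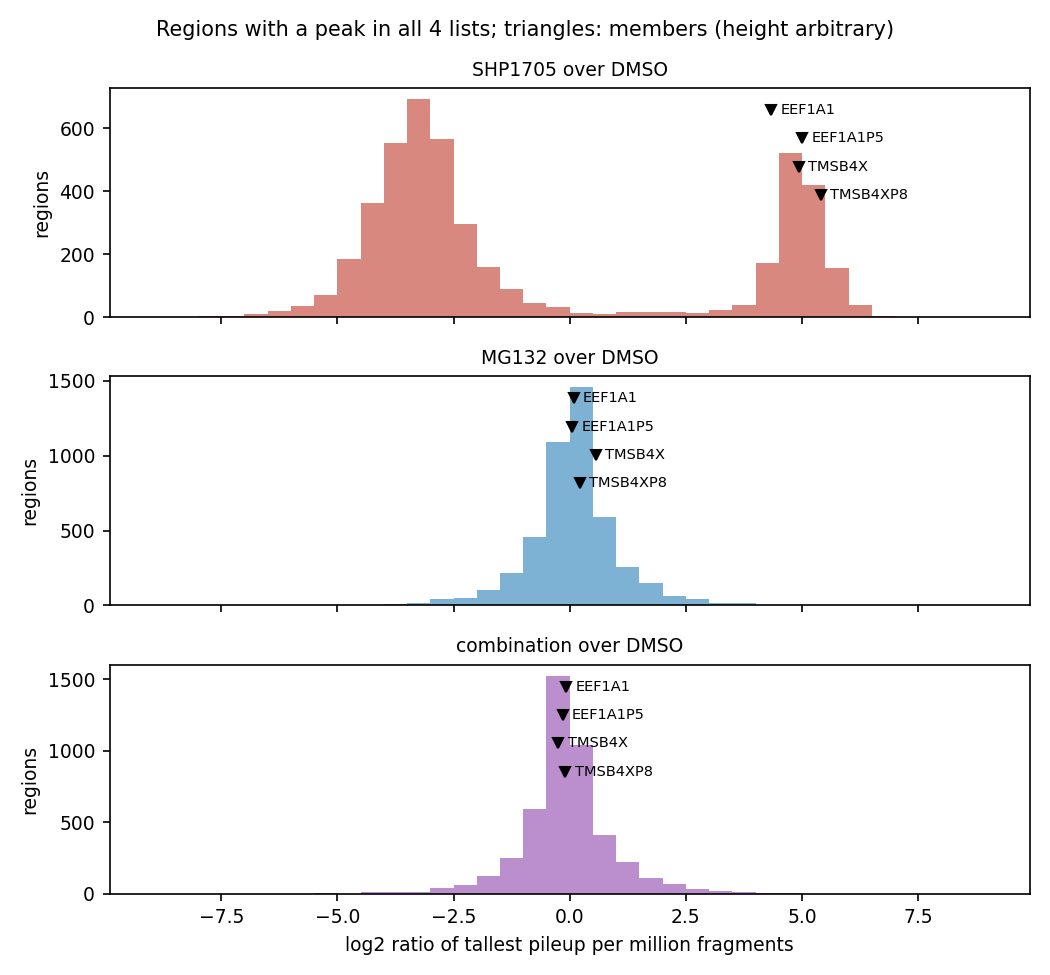
Histograms count the 4584 regions with a peak in all 4 lists by the log2 ratio of their tallest pileup in FPM to DMSO, for SHP1705, MG132 and the combination, and triangles mark the 4 members with a peak in every list at an arbitrary height. In SHP1705 the regions form separate humps on both sides of 0 with all 4 members in the upper hump, while in MG132 and the combination they form a single hump and the members lie near 0.

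Most annotated copies of these genes had no peak. Of 59 copies named after EEF1A1 (49), TMSB4X (8) or TMSB10 (2), 20 held a summit in SHP1705, 8 in MG132, 5 with both drugs and 7 in DMSO, or 33.9%, 13.6%, 8.47% and 11.9%. The same shares over all annotated pseudogenes were 22.6%, 9.63%, 8.37% and 8.32%. EEF1A1P5 and TMSB4XP8, which were chosen for their peaks, are among the 59 copies, so nothing is read from this comparison. The copies with a peak in every list numbered 4, namely EEF1A1P5, EEF1A1P6, TMSB4XP8 and TMSB10P1. A further 13 had one in SHP1705 alone, and 5 had one in another list but not in SHP1705. The SHP1705 library held 3.98 times the fragments of DMSO, and the part of depth in these counts was not tested.

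EEF1A1P6, on chromosome 7 at 22510317 to 22512062, was the next tallest EEF1A1 copy. It held 59011 fragments in SHP1705, 559 in MG132, 573 with both drugs and 658 in DMSO. It was thus close in height to the taller EEF1A1 peak, at 1.10 times in SHP1705 (1.08 to 1.11), 0.857 times in MG132 (0.764 to 0.961), 0.952 times in the combination (0.847 to 1.07) and 0.985 times in DMSO (0.883 to 1.10). When the pair of EEF1A1 peaks was summed, EEF1A1P6 was lower, at 0.628 in SHP1705, 0.610 in MG132, 0.685 with both drugs and 0.659 in DMSO. In FPM, the ratio to DMSO at EEF1A1P6 was 22.5 in SHP1705, 0.925 in MG132 and 0.913 with both drugs. At TMSB10P1 it was 32.2 in SHP1705, 1.28 in MG132 and 0.903 with both drugs.

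In SHP1705 the remaining copies were far lower. EEF1A1P12 held 3799 fragments in SHP1705 and 62 in MG132, EEF1A1P19 held 1500 in SHP1705, and EEF1A1P14 held 911 there. EEF1A1P24 went the other way in FPM, with 6.93 in SHP1705 and 14.1 in MG132. EEF1A1P35 had 0.634 in SHP1705 and 9.49 with both drugs. Copies with a peak in MG132 or DMSO but not in SHP1705 were EEF1A1P33 with 213 fragments and EEF1A1P44 with 149 in MG132, and EEF1A1P31 with 347, EEF1A1P43 with 144 and EEF1A1P27 with 23 in DMSO. Of these, EEF1A1P31 lies inside F8 and EEF1A1P43 inside PEMT. TMSB4XP4 held 1088 fragments, TMSB4XP6 held 425 and TMSB10P2 held 1158, each in SHP1705 alone. Beyond the 4 copies with a peak in every list, the tallest in SHP1705 was thus EEF1A1P12, at 32.1 FPM.

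**Figure D5:**
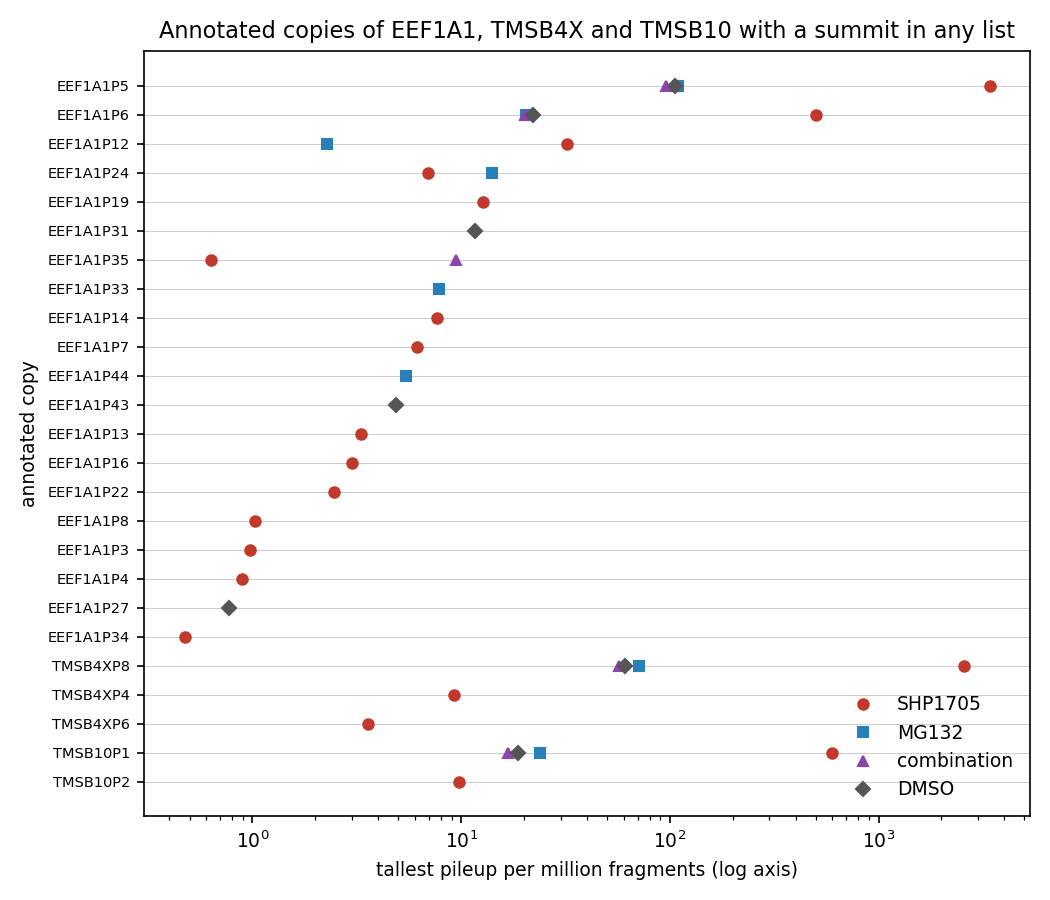
Each row is an annotated copy of EEF1A1, TMSB4X or TMSB10 with a summit in at least 1 list, and the points give its tallest pileup in FPM (log axis) in SHP1705, MG132, the combination and DMSO. EEF1A1P5, EEF1A1P6, TMSB4XP8 and TMSB10P1 have points in all 4 lists, with SHP1705 far to the right.

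No peak overlapped the 250 bases before the start of EEF1A1 or TMSB10 in any list, while those before TMSB4X had one in DMSO. That peak, at 12974749 to 12975128 with 218 fragments (7.34 FPM), had its summit 171 bp before the start of TMSB4X, outside the gene, while its end reached into the first bases of it. A peak overlapped the 250 bases before the gene start in 10.4% of 34961 annotated genes in SHP1705, 1.78% in MG132, 1.36% with both drugs and 1.18% in DMSO. The windows of the 3 parents are shown because they hold the promoters from which these abundant mRNAs are made, set against peaks that lay deep in the genes. They are from RefSeq (GRCh38.p14), 5′ to 3′ on the strand of the gene, with the plus strand for TMSB4X (chrX:12974860-12975109) and TMSB10 (chr2:84905406-84905655) and the minus strand for EEF1A1 (chr6:73521033-73521282). Capitals mark the GC box letters GGGCGG on either strand. The letters TATATAA, which resemble the TATA box, are also in capitals.
TMSB4X: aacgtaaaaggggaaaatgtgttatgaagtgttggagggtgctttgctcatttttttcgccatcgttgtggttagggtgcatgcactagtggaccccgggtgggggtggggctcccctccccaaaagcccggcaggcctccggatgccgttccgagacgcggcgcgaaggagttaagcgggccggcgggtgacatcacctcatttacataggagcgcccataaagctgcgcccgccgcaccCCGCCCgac
EEF1A1: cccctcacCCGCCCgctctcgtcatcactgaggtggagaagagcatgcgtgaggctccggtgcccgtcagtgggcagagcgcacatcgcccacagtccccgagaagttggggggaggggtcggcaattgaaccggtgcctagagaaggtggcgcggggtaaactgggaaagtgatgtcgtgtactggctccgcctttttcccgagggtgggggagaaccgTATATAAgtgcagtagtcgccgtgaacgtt
TMSB10: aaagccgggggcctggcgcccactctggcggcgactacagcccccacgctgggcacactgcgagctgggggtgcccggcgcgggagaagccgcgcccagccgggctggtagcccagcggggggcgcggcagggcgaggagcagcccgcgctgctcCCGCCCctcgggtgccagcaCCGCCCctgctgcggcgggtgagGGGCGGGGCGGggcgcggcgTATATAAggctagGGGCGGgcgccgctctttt

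The windows differed in composition. GGGCGG was found 5 times in TMSB10, with a pair of matches sharing bases, and once each in EEF1A1 and TMSB4X, and 42.7% of all 34961 windows held it. TATATAA, added after the windows were read, was found once in EEF1A1 and once in TMSB10 and was held by 2.43% of all windows. The sequence CACGTG, the E-box letters bound by the clock activators that CRY proteins repress, was found in none of the 3 windows and in 6.35% of all windows, and TATAAA in none of the 3 and in 10.7% of all. The share of G and C was 78% in TMSB10, 61.6% in EEF1A1 and 60.8% in TMSB4X, against a median of 58.4% over all windows. The DMSO peak covered the whole TMSB4X window.

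Other peaks with a summit outside the loci but within 5000 bp differed between lists. They lay 4117 bp from EEF1A1 in MG132, with 299 fragments, and 1408 bp from EEF1A1P5 in DMSO, with 641. Both exceeded the median peak of their list, which held 148 fragments in MG132 and 239 in DMSO. Near TMSB4X there was 1 in MG132 with 166 fragments, 1574 bp away, and 1 in the combination with 254, 1895 bp away. Near TMSB4XP8 the combination had 1 with 188 fragments at 3697 bp. Near TMSB10, MG132 had 157 fragments at 1959 bp and the combination 155 at 1712 bp. SHP1705 had no such peak near any of the 5 loci.

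Other genes of translation elongation varied widely. Of 13 listed genes, 11 held a summit in SHP1705, 6 in MG132, 6 with both drugs and 4 in DMSO. Over all protein-coding genes the shares with a summit were 75.9%, 51.6%, 45.7% and 42.1% in the same order. The list was chosen with earlier results of these data known, so nothing is read from its comparison with all genes. EEF2, the factor that moves the ribosome along the mRNA, held 28052 fragments in SHP1705, 300 in MG132, 227 with both drugs and 303 in DMSO. Its ratio to DMSO in FPM was 23.3 in SHP1705, 1.08 in MG132 and 0.786 with both drugs. EIF5A, which helps ribosomes past difficult sequences, had ratios of 28.9, 1.25 and 0.915 in the same order. EEF2K, the kinase that inhibits EEF2, was below DMSO in every treatment, with ratios of 0.2001 in SHP1705, 0.2999 in MG132 and 0.0755 with both drugs. EEFSEC, the factor for selenocysteine, had ratios of 0.321, 0.937 and 2.17. Of all genes with a summit in both lists, 49%, 25.7% and 19.1% were at least 2-fold lower than in DMSO, in the same order. Those at least 2-fold higher were 29.3%, 12.6% and 15.4%. Each ratio takes the tallest peak of a gene wherever it lies, so it need not concern the same peak in both lists. TUFM, the mitochondrial counterpart of EEF1A1, held 3279 fragments and EEF1B2, a subunit of the factor that recharges EEF1A1 with GTP, 856, both in SHP1705 alone. EEF1D, of the same exchange factor, had 4.80 FPM in SHP1705 and 3.22 in MG132, while EEF1G, its remaining subunit in the list, held 158 fragments in MG132 and no peak in the other lists. EEF1E1, a scaffold protein of the tRNA synthetase complex, had 2.14 FPM in SHP1705 and 36.4 FPM in the combination. GFM1 had 5.14 FPM in SHP1705 and 21.5 FPM in the combination. EEF1A2, the other EEF1A gene, had no peak in any list.

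Genes that handle actin monomers held a summit in 12 of 12 cases in SHP1705, 8 in MG132, 8 with both drugs and 7 in DMSO, beside 75.9%, 51.6%, 45.7% and 42.1% of all protein-coding genes. CFL1 encodes cofilin, which severs actin filaments. It held 33137 fragments in SHP1705, 243 in MG132, 193 with both drugs and 222 in DMSO. Of the 7 with a summit in both SHP1705 and DMSO, 6 were at least 2-fold higher in FPM in SHP1705, and the median ratio was 28.8. These 6 were PFN2, CFL1, DSTN, CAP1, TWF1 and WDR1. Over all genes with a summit in both, 29.3% were at least 2-fold higher and the median was 0.527. The listed genes were chosen with earlier results of these data known, so nothing is read from their comparison with all genes. CAP2 was lower, with a ratio of 0.221 in SHP1705, against 0.935 in MG132 and 0.871 with both drugs. PFN1, or profilin, which competes with beta-thymosins for actin monomers, held 8779 fragments in SHP1705 and no peak in the other lists, as at TMSB10. In MG132, WDR1 had a ratio to DMSO of 3.43, and in the combination DSTN, CAP1 and TWF1 had ratios of 2.99, 2.75 and 26.9. These were 1 of 7 and 3 of 7 genes at least 2-fold higher, beside 12.6% and 15.4% of all genes. These compare the tallest peak of a gene wherever it lies, so they need not concern the same peak.

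Likeness of pattern to other annotated genes and pseudogenes was measured as the Euclidean distance between log2 heights in FPM, after adding 1, over 4 libraries, with a missing peak taken as 0. EEF1A1 was nearest to its own copy EEF1A1P6 (distance 0.26), then to GAPDH (0.34) and RPL6P27 (0.41). EEF1A1P5 was nearest to TMSB4XP8 (1.31), RPL13AP5 (1.71) and ACTB (1.74), all at larger distances than for the other members. TMSB4XP8 was nearest to RPL13AP5 (0.47), ACTB (0.72) and FTH1P7 (0.98). TMSB4X was nearest to RPL23P6 (0.39), RPS23P1 (0.40) and RPL37AP1 (0.40), which are copies of ribosomal protein genes. TMSB10 was nearest to IFITM3 (0.08), RPS15P2 (0.08) and PI3 (0.11), which also had a peak in SHP1705 alone.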

How the data were processed

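Deposited peak lists of 4 STARR-seq libraries, 1 per treatment, were used. Trimmomatic, FastQC, Bowtie2 and MACS2 were run with hg38, per the submitters' processing notes. Each library had its own peak calling by MACS 2.2.6 on paired-end fragments at a q limit of 0.01, with duplicates kept and no control library, per the file headers. The pileup is an unscaled signal, the fragments covering a summit, as deposited by the authors. The fold is the ratio of pileup to a local background over 10000 bp, per the file headers, and was not compared between lists. Deposited values of −log10 p and −log10 q served for filtering.

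Peaks on chromosomes 1 to 22 and X were given to a RefSeq gene (GRCh38.p14) by their summit, with Python 3.11.15, pandas 2.3.3 and scipy 1.17.1. The tallest pileup of a gene was divided by the fragments in the file header and multiplied by 1000000. Differences of at least 2-fold were counted. Intervals are exact (Clopper-Pearson) at 95%. The placement of peaks and the ratios were tested on simulated data. The members and gene lists were chosen with earlier results of these data known. Beyond the members, the text names the 5 tallest other copies per family in SHP1705 and those with a summit in another list. It also names the 5 families with the tallest copies and the 3 most similar genes per member. Of each gene list it names the 4 tallest in SHP1705 and at least 4 others with a summit in another list. For the elongation list these others were all that had one, and EEF1A2, with no peak, was added. TMSB10P1 and EEF1A1P6 have extra values chosen after they were seen. Alternatives changed the placement rule, q limit, width, list length, scaling, and tallest against summed peaks. No genome sequence was used, and the table gives no exons or strand for the copies, so exons, introns and copy sequences were not analysed here.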

Additional observations from a re-analysis of the deposited data

How the results depend on the processing

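No paired analysis was possible because there was 1 library per treatment. Of 82 recomputed counts under the alternatives, 81 stayed within 1.5 times the reported value. The exception was the number of elongation and actin genes with a summit in MG132, which was 8 with lists of equal length against 14 in the full list; this alternative keeps fewer MG132 peaks by construction. All counts of members with a summit, of copies taller than their parent and of members at least 2-fold higher than DMSO kept their value under the alternatives run for them. The members were chosen for their heights, and the overlap and width alternatives kept the same tallest peaks at them. These counts had little room to change, so nothing is read from their stability. Of 104 recomputed ratios at single members, 22 moved by more than counting error and none changed direction among those past 2-fold. Scaling each library so that the median region shared by all lists had a ratio of 1 raised the ratio of SHP1705 to DMSO to 132 at EEF1A1, 210 at EEF1A1P5, 200 at TMSB4X and 277 at TMSB4XP8. Heights of 368 to 668 fragments at EEF1A1 and TMSB4X in MG132, the combination and DMSO limit the precision of their ratios.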
